A study of Homo sapiens with 6 samples.

Results

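The Iroquois genes IRX1, IRX2, IRX3 and IRX5 and the ZIC genes ZIC1, ZIC2, ZIC4 and ZIC5 encode transcription factors that give neural tissue its regional identity. These 8 genes were taken by family and name, not by their measured values, from 27439 genes with at least 1 read. They were followed in 6 RNA libraries from astrocytes made from H1, an established human embryonic stem cell line. The labels name 2 groups of 3 libraries, numbered 2, 3 and 4 in each: astrocytes given a ventral midbrain character (VM) and control astrocytes, labelled forebrain. Both groups came from the same line, and nothing in the labels says that the libraries of a group came from separate cultures, so each p-value reflects the spread among these 6 libraries alone. Libraries were made with a 3' mRNA kit, which reads the end of each polyadenylated transcript.

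Iroquois proteins carry a homeodomain of the TALE class and lie in gene clusters. In vertebrate embryos they set boundaries within the neural tube: in chick, IRX3 and SIX3 mark territories that meet in the diencephalon, and in mouse and chick IRX3 takes part in dividing the ventral neural tube into progenitor domains. ZIC proteins carry zinc fingers related to those of the GLI factors and are best known from dorsal neural tissue, the cerebellum and the neural crest. Their genes lie in head-to-head pairs, ZIC1 with ZIC4 and ZIC2 with ZIC5. In humans, loss of ZIC1 and ZIC4 has been linked to cerebellar malformation and loss of ZIC2 to holoprosencephaly, a failure to divide the forebrain.

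The genes sit in 4 places of the genome (GRCh38). On chromosome 5, IRX2 (2745845 to 2751662, minus strand) and IRX1 (3596054 to 3601403, plus strand) are 844392 bases apart. On chromosome 16, IRX3 (54283304 to 54286763, minus strand) and IRX5 (54930862 to 54934485, plus strand) are 644099 bases apart. ZIC4 (147386046 to 147406860, minus strand) and ZIC1 share a stretch of chromosome 3, where the annotation extends ZIC1 from 147393422 to 147510293 on the plus strand. The ZIC1 transcript that held most reads (ENST00000282928) spans 147409384 to 147416719 and does not reach into ZIC4. On chromosome 13, ZIC5 (99962964 to 99971909, minus strand) and ZIC2 (99981772 to 99986773, plus strand) are 9863 bases apart.

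The promoters of IRX1 and ZIC1 are shown because these genes passed the test below, each with that of its partner in the genome, IRX2 and ZIC4. Each run gives 250 bases before and 50 bases after the RefSeq start site (GRCh38.p14), 5′ to 3′ on the gene's own strand, with every CG dinucleotide in capitals. The windows are chr5:3595582-3595881 (IRX1, plus), chr5:2751628-2751927 (IRX2, minus), chr3:147409115-147409414 (ZIC1, plus) and chr3:147406494-147406793 (ZIC4, minus, the start nearest to its main transcript).
IRX1: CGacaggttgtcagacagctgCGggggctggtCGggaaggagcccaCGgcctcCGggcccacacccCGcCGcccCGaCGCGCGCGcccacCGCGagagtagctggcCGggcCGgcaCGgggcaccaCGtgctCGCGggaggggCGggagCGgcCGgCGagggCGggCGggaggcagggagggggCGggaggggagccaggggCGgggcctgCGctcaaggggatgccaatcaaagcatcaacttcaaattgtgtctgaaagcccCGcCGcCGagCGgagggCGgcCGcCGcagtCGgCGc
IRX2: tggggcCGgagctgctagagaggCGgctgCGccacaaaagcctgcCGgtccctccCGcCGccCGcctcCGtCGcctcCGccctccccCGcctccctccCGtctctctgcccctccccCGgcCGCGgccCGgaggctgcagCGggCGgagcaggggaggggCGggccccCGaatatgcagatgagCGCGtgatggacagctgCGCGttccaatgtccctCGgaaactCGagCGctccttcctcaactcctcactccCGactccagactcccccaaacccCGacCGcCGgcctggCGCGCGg
ZIC1: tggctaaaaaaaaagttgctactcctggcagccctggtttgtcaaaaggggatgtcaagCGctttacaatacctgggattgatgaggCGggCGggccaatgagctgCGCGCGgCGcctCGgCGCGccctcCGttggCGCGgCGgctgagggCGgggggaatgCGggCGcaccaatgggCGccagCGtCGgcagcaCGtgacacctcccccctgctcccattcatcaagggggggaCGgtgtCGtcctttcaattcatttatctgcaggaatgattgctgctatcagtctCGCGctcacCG
ZIC4: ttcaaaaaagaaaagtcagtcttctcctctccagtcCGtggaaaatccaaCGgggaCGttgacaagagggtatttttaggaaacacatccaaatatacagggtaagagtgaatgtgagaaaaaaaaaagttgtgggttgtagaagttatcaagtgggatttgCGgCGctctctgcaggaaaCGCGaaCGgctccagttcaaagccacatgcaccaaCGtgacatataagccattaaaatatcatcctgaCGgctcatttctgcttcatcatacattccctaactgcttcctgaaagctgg

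CG dinucleotides numbered 38 in the IRX1, 34 in the IRX2 and 26 in the ZIC1 promoter, against 10 in that of ZIC4 and a median of 14 over 35116 human promoters of 300 bases. The ZIC2 and ZIC5 windows held 35 and 33. The RefSeq start sites used for ZIC1 and ZIC4 are 2822 bases apart. That of ZIC4 lies 317 bases inside its main transcript, so the whole ZIC4 window is within that transcript and not upstream of it. The IRX1 start site lies 222 bases before its quantified transcript, so the IRX1 window ends before that transcript begins. The sequence table matched 6 of the 8 genes, the others being IRX3 and IRX5. Searched on both strands, an Iroquois palindromic motif (ACANNTGT, found in 5.62% of all promoters) and a ZIC motif (CAGCAGG, found in 10.5%) had no match in these 6 windows.

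The comparison asks how the regional factors of VM astrocytes differ from those of forebrain controls. Of the 8 genes, IRX1 rose and ZIC1 fell past edgeR's quasi-likelihood test at an adjusted p under 0.05. Of all 15984 genes tested, 2.15% passed, with 1.06% higher and 1.09% lower. With the replicate number as a block, IRX2, IRX3 and ZIC4 passed too, 5 of 8 genes against 8.13% of all genes. For those 5 genes no VM library overlapped the control libraries, which held for 17.9% of all genes tested. The median log2 fold change was -0.40 over the 8 genes and 0.01 over all genes tested.

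**Figure D1:**
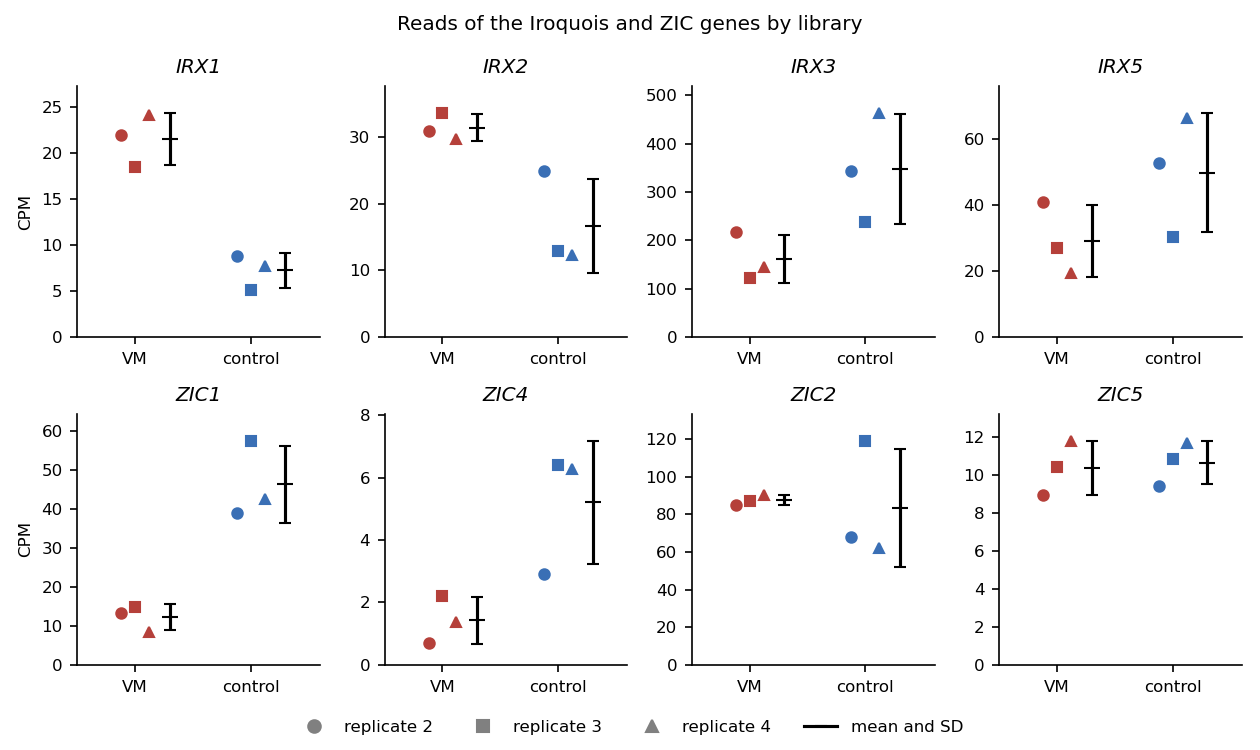
Scaled read level (CPM, reads relative to the scaled library size, linear axes from 0) of each gene in VM and control libraries, with a marker for each replicate number and the mean and SD beside the points. The VM points of IRX1 (18.5 to 24.1 CPM) all lie above the control points (5.13 to 8.85 CPM), and those of ZIC1 (8.45 to 14.8 CPM) all lie below (38.8 to 57.4 CPM).

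IRX1, which in vertebrate embryos is expressed in midbrain and hindbrain among other tissues, was at 22.0, 18.5 and 24.1 CPM in VM replicates 2, 3 and 4, against 8.85, 5.13 and 7.71 CPM in control replicates 2, 3 and 4. These values rest on 236 to 338 reads per VM library and 60 to 121 per control library. Every VM library was above every control library. The log2 fold change was 1.57 ± 0.26 (SE, n = 3 each; edgeR adjusted p = 0.012). The call ended without control replicate 4 (edgeR adjusted p = 0.056), VM replicate 2 (0.052) or VM replicate 4 (0.058), and also with a gene-length offset (0.053) or the deposited normalized values (limma adjusted p = 0.059).

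IRX2, its neighbour on chromosome 5, was at 30.9, 33.6 and 29.6 CPM in VM replicates 2, 3 and 4, against 24.8, 12.9 and 12.3 CPM in control replicates. The VM libraries lay close together, and control replicate 2 stood nearest to them. For IRX2 the log2 fold change was 0.91 ± 0.27 (SE, n = 3 each; edgeR adjusted p = 0.15; blocked by replicate number, 0.012). Without control replicate 2 the log2 fold change was 1.31 (edgeR adjusted p = 0.025). Reads of IRX2 were divided between 2 coding transcripts of different 3' ends, ENST00000302057 with 264, 225 and 249 estimated reads in VM and 226, 103 and 91.8 in control replicates, and ENST00000382611 with 211, 203 and 165 in VM and 113, 48.4 and 71.2 in control replicates. Both transcripts thus held more reads in each VM library than in the control library of the same number, before scaling for depth.

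IRX3, the gene of the ventral neural tube and diencephalic boundary described above, was at 218, 123 and 146 CPM in VM replicates 2, 3 and 4, against 343, 237 and 464 CPM in control replicates. The groups did not overlap, and VM replicate 2 lay nearest to control replicate 3. For IRX3 the log2 fold change was -1.10 ± 0.28 (SE, n = 3 each; edgeR adjusted p = 0.10; blocked by replicate number, 0.0029). It was -0.84 without control replicate 4 and -1.38 without VM replicate 2. A short coding transcript of IRX3 (ENST00000558054, 444 bases) was assigned 829, 235 and 41.3 reads in VM and 925, 151 and 0 reads in control replicates 2, 3 and 4, so its share followed the replicate number. The sum over transcripts is what was tested.

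IRX5, which in mouse is needed for some retinal bipolar cells, was at 41.0, 27.2 and 19.5 CPM in VM replicates 2, 3 and 4, against 52.7, 30.5 and 66.5 CPM in control replicates. VM replicate 2 lay above control replicate 3, so the groups overlapped. For IRX5 the log2 fold change was -0.77 ± 0.34 (SE, n = 3 each; edgeR adjusted p = 0.42; blocked by replicate number, 0.29). Across the 6 libraries the log2 CPM of IRX3 and IRX5 had a Pearson r of 0.91, and that of IRX1 and IRX2 one of 0.88. These are descriptions over 6 libraries that share the group difference and the replicate numbers.

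As a share of the reads on the 4 Iroquois genes, IRX1 and IRX2 held 22.4% ± 4.78 in VM and 5.93% ± 2.12 in control libraries (SD, n = 3 each). IRX3 held 65.7% ± 4.63 in VM and 82.4% ± 2.27 in control libraries. IRX5 took 11.8% ± 2.55 in VM and 11.7% ± 0.87 in control libraries, so its part of the Iroquois reads was alike in both groups. These shares do not depend on library scaling, and no test was made of them because they are built from the chosen genes.

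**Figure D2:**
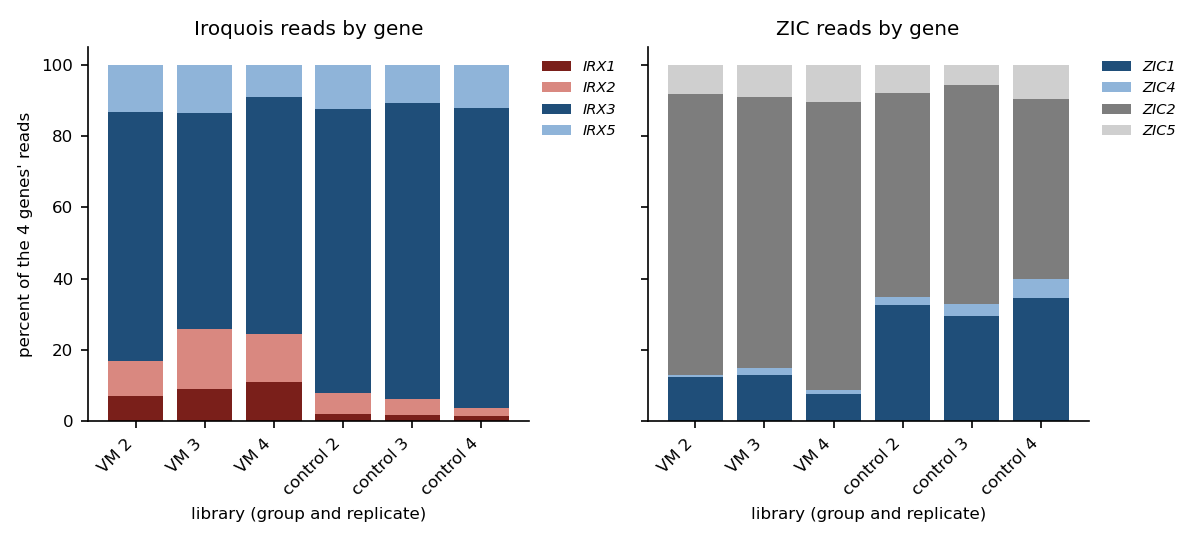
Stacked bars giving each gene's percent of the reads on the 4 Iroquois genes (left) and the 4 ZIC genes (right) in each library, VM libraries first. IRX1 and IRX2 together averaged 22.4% in VM and 5.93% in control libraries, and ZIC1 and ZIC4 together averaged 12.2% in VM and 35.9% in control libraries.

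ZIC1, a factor of the dorsal neural tube and cerebellum, was at 13.3, 14.8 and 8.45 CPM in VM replicates 2, 3 and 4, against 38.8, 57.4 and 42.5 CPM in control replicates. Every VM library was far below every control library. The log2 fold change was -1.92 ± 0.25 (SE, n = 3 each; edgeR adjusted p = 0.0040), and the call held in each of the 16 alternatives (largest adjusted p = 0.025). ENST00000282928 held 201, 179 and 117 reads in VM and 518, 659 and 503 reads in control replicates. A noncoding transcript further along the chromosome that the annotation assigns to ZIC1 (ENST00000474034, 147421327 to 147510293) held 4, 10 and 1 reads in VM and 12, 12 and 59 in control replicates. With coding transcripts alone, an alternative chosen after the transcripts had been seen, the log2 fold change was -1.90 (edgeR adjusted p = 0.0043).

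ZIC4, transcribed away from ZIC1 on the other strand, was at 0.715, 2.20 and 1.36 CPM in VM replicates 2, 3 and 4, against 2.93, 6.42 and 6.28 CPM in control replicates. That is 11 to 28 reads per VM library and 40 to 83 per control library, with no overlap between groups. For ZIC4 the log2 fold change was -1.87 ± 0.54 (SE, n = 3 each; edgeR adjusted p = 0.13; blocked by replicate number, 0.015). No source used here says if reads were assigned by strand. All reads assigned to ZIC1 were on transcripts that start at 147409384 or 147421327, past the end of ZIC4 at 147406860. The ZIC1 transcripts with reads thus do not overlap ZIC4.

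ZIC2, needed for forebrain division in humans and mice, was at 85.2, 87.3 and 90.4 CPM in VM replicates 2, 3 and 4, against 68.2, 119 and 62.1 CPM in control replicates. The VM libraries fell between the control libraries, whose spread was wider (SD of 2.66 CPM in VM and 31.4 CPM in control, n = 3 each). The log2 fold change was 0.08 ± 0.23 (SE; edgeR adjusted p = 0.95). ZIC5, which in mouse acts in neural tube closure and neural crest formation, was at 8.97, 10.4 and 11.8 CPM in VM and 9.44, 10.9 and 11.7 CPM in control replicates 2, 3 and 4. The groups overlapped throughout, and the log2 fold change was -0.04 ± 0.24 (SE, n = 3 each; edgeR adjusted p = 0.98). An adjusted p of this size does not show that either gene was unchanged.

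Within the reads of the 4 ZIC genes, ZIC1 and ZIC4 held 12.2% ± 3.11 in VM and 35.9% ± 3.53 in control libraries (SD, n = 3 each). ZIC2 held 78.5% ± 2.31 in VM and 56.4% ± 5.45 in control libraries.

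**Figure D3:**
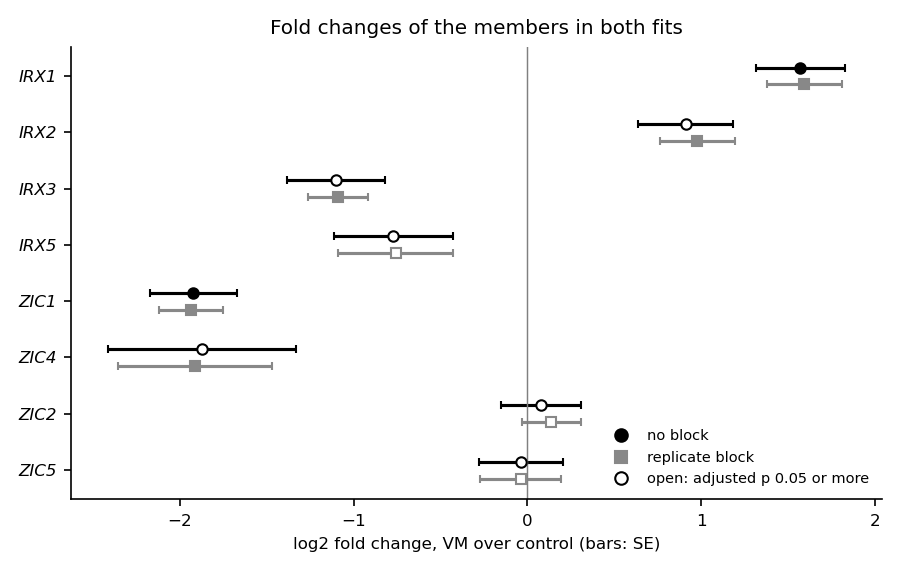
Log2 fold change of VM over control for each gene (points) with its SE (bars), in the fit without a block (circles) and with the replicate block (squares). Filled markers have an adjusted p under 0.05: IRX1 and ZIC1 without the block, and IRX1, IRX2, IRX3, ZIC1 and ZIC4 with it.

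Between libraries of the same number, the difference in log2 CPM had the same sign in all 3 pairs for IRX1, IRX2, IRX3, IRX5, ZIC1 and ZIC4. VM minus control was 1.30, 1.82 and 1.62 for IRX1 in pairs 2, 3 and 4, and -1.53, -1.94 and -2.31 for ZIC1. For IRX3 it was -0.65, -0.95 and -1.67, and for IRX5 -0.36, -0.17 and -1.76, so pair 4 held the largest difference of both chromosome 16 genes. ZIC2 was 0.32, -0.45 and 0.54 and ZIC5 -0.07, -0.06 and 0.01 in the same pairs, with both signs present.

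**Figure D4:**
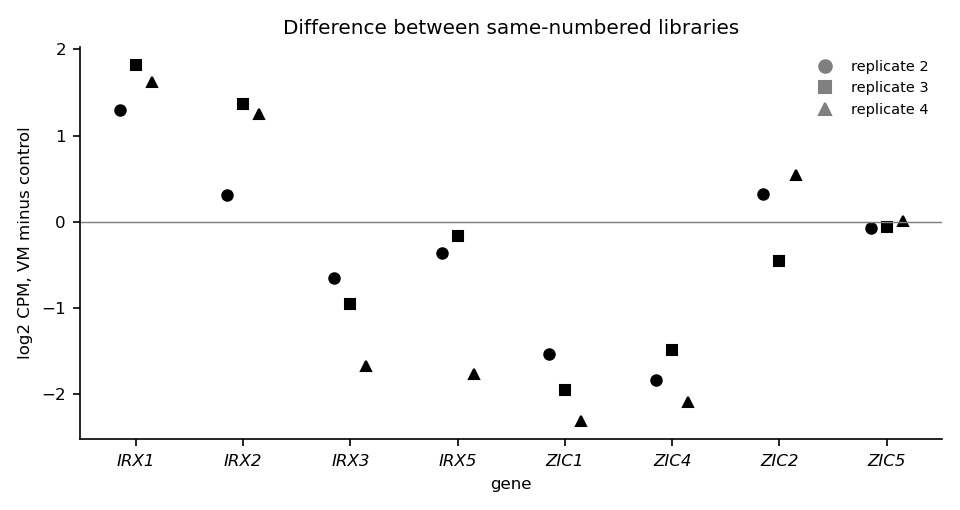
Difference in log2 CPM, VM minus control, between libraries that share a replicate number, for each gene. The points of IRX1 (1.30 to 1.82) lie above 0 and those of ZIC1 (-2.31 to -1.53) below, while ZIC2 (-0.45 to 0.54) has points on both sides.

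Levels of different genes were set beside each other per transcript length, as deposited TPM summed per gene, a scale that favours short transcripts in 3' end libraries. IRX3 was highest at 42.7 ± 18.9 TPM in VM and 76.5 ± 7.39 TPM in control libraries, followed by ZIC2 at 33.1 ± 6.26 TPM in VM and 28.3 ± 7.42 TPM in control libraries (SD, n = 3 each). IRX3 and ZIC2 overlapped in VM libraries. IRX5 came next at 6.95 ± 1.84 TPM in VM and 11.8 ± 2.45 TPM in control libraries. IRX2 at 5.90 ± 0.54 TPM and IRX1 at 5.76 ± 1.996 TPM did not differ from IRX5 beyond their spread in VM libraries, and stood at 3.02 ± 0.98 and 1.85 ± 0.14 TPM in control libraries. ZIC1 was at 0.955 ± 0.32 TPM in VM and 3.79 ± 1.03 TPM in control libraries, placing it seventh in VM and the fourth in control. ZIC5 was at 0.979 ± 0.20 TPM in VM and 0.946 ± 0.20 TPM in control libraries, and ZIC4 was lowest at 0.079 ± 0.042 TPM in VM and 0.293 ± 0.147 TPM in control libraries.

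Other Iroquois relatives were at or near the detection limit. No read was assigned to IRX6 in any library, which allows up to 0.195 to 0.235 CPM in VM and 0.219 to 0.257 CPM in control libraries (3 reads per library, covering counting error only). IRX4 was at 0 CPM in every library but control replicate 3, at 0.342 CPM. MKX, the most distant Iroquois relative, averaged 0.302 CPM in VM and 0.613 CPM in control libraries, too low to be tested.

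Transcripts beside the Iroquois genes did not pass the test. C5orf38, which starts 469 bases from IRX2 on the opposite strand, was at 5.01, 5.49 and 5.59 CPM in VM and 6.88, 3.76 and 3.55 CPM in control replicates (log2 fold change 0.18 ± 0.37; edgeR adjusted p = 0.92). CRNDE, a long noncoding RNA that starts 1673 bases from IRX5 on the opposite strand, was at 32.6, 26.9 and 11.9 CPM in VM and 37.7, 13.9 and 26.2 CPM in control replicates (log2 fold change -0.12 ± 0.46; edgeR adjusted p = 0.96). Near the chromosome 13 pair, CLYBL averaged 12.3 CPM in VM and 11.1 CPM in control libraries, and AL355338.1 averaged 8.62 CPM in VM and 7.60 CPM in control libraries (edgeR adjusted p = 0.92 and 0.89). The antisense gene AC018553.2, which overlaps IRX3, and the noncoding genes AC018553.1 and AC106738.1 reached 5, 15 and 10 reads at most in a library and were not tested.

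A list of 13 neural patterning factors was set beside the Iroquois genes as possible boundary partners, and a shared boundary is not established for each of them. Of these 8 were tested, and 1 rose, 3 fell and 4 did not pass, where 2.15% of all genes tested passed. The median log2 fold change was -2.54 against 0.01 over all genes. Several are forebrain factors, the controls are labelled forebrain, and the list was chosen with earlier results known. The median therefore describes this list only. SIX3, the forebrain factor opposed to IRX3 in chick, was at 12.5, 39.1 and 12.03 CPM in VM and 185, 178 and 205 CPM in control replicates (edgeR adjusted p = 0.046; blocked by replicate number, 0.11). FEZF2, a cortical and diencephalic factor, was at 0, 0.627 and 0.143 CPM in VM and 7.97, 12.8 and 16.2 CPM in control replicates (edgeR adjusted p = 0.0072). PAX6 was at 15.5, 12.7 and 9.95 CPM in VM and 36.0, 89.7 and 45.4 CPM in control replicates (edgeR adjusted p = 0.019). The ventral progenitor factor NKX6-1 was at 2.80, 6.12 and 10.5 CPM in VM and 0.366, 0.513 and 0.605 CPM in control replicates (edgeR adjusted p = 0.011). Blocked by replicate number, 2 rose and 4 fell, where 8.13% of all genes tested passed. SIX3 left the called genes, and OTX2, FEZF1 and GBX2 joined them. OTX2 averaged 2.33 CPM in VM and 17.6 CPM in control libraries (edgeR adjusted p = 0.24, blocked 0.0014). FEZF1 averaged 0.124 CPM in VM and 2.05 CPM in control libraries (edgeR adjusted p = 0.081, blocked 0.020). GBX2 averaged 4.25 CPM in VM and 1.10 CPM in control libraries (edgeR adjusted p = 0.49, blocked 0.022). Leaving out 1 library ended the call of SIX3 in 5 of 6 fits (VM replicate 3 excepted), of PAX6 in 4 (each VM library and control replicate 4) and of NKX6-1 in 2 (replicate 4 of either group).

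Of 15 dorsal neural tube genes, the territory in which ZIC1 is best known, 11 were tested, with 0 higher, 2 lower and 9 not passing and a median log2 fold change of 0.23. MSX2, a BMP-responsive homeobox gene, was at 1.76, 3.61 and 2.86 CPM in VM and 13.5, 18.2 and 27.0 CPM in control replicates (log2 fold change -2.84 ± 0.36; edgeR adjusted p = 0.0037), and the call held in all 15 alternatives tried. BMP6, a ligand, was at 2.41, 3.21 and 3.44 CPM in VM and 14.996, 7.44 and 12.3 CPM in control replicates (edgeR adjusted p = 0.018), a call that ended without replicate 2 or 4 of either group. LMX1B and WNT1 did not pass but had the opposite sign, with no overlap between groups, which held for 17.9% of all genes tested. Their control values were low, from 0.0732 to 0.770 CPM, where 3 reads are 0.219 to 0.257 CPM. LMX1B, a roof plate and midbrain factor, was at 2.34, 0.941 and 4.44 CPM in VM and 0.0732, 0.513 and 0.378 CPM in control replicates (edgeR adjusted p = 0.13). WNT1, a ligand of the midbrain and roof plate, was at 2.15, 2.20 and 2.94 CPM in VM and 0.0732, 0.770 and 0.378 CPM in control replicates (edgeR adjusted p = 0.16). PAX3 and MSX1, the list's most abundant genes, averaged 24.2 and 35.9 CPM in VM and 20.6 and 29.6 CPM in control libraries (edgeR adjusted p = 0.82 and 0.69).

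Among other TALE homeobox genes, MEIS2 alone passed of 11 tested without the block. It was at 33.5, 32.5 and 24.4 CPM in VM and 51.4, 68.5 and 65.9 CPM in control replicates (log2 fold change -1.04 ± 0.19; edgeR adjusted p = 0.018), and the call ended without control replicate 3 or 4 or VM replicate 2 or 4. Blocked by replicate number, MEIS3 (50.6 CPM in VM and 29.2 CPM in control libraries on average; edgeR adjusted p = 0.21, blocked 0.023) and PKNOX2 (32.5 CPM in VM and 49.6 CPM in control libraries; 0.19, blocked 0.044) passed too. MEIS1, a more abundant relative, averaged 98.2 CPM in VM and 98.8 CPM in control libraries (edgeR adjusted p = 0.995). The list's median log2 fold change was 0.07. Of the GLI and GLIS genes, the nearest zinc finger relatives of ZIC, 0 of 5 tested passed in edgeR (0 had an unadjusted p below 0.05), and the median log2 fold change was -0.22. GLIS3 averaged 201 CPM in VM and 238 CPM in control libraries, and GLI3 averaged 83.8 CPM in VM and 73.7 CPM in control libraries.

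**Figure D5:**
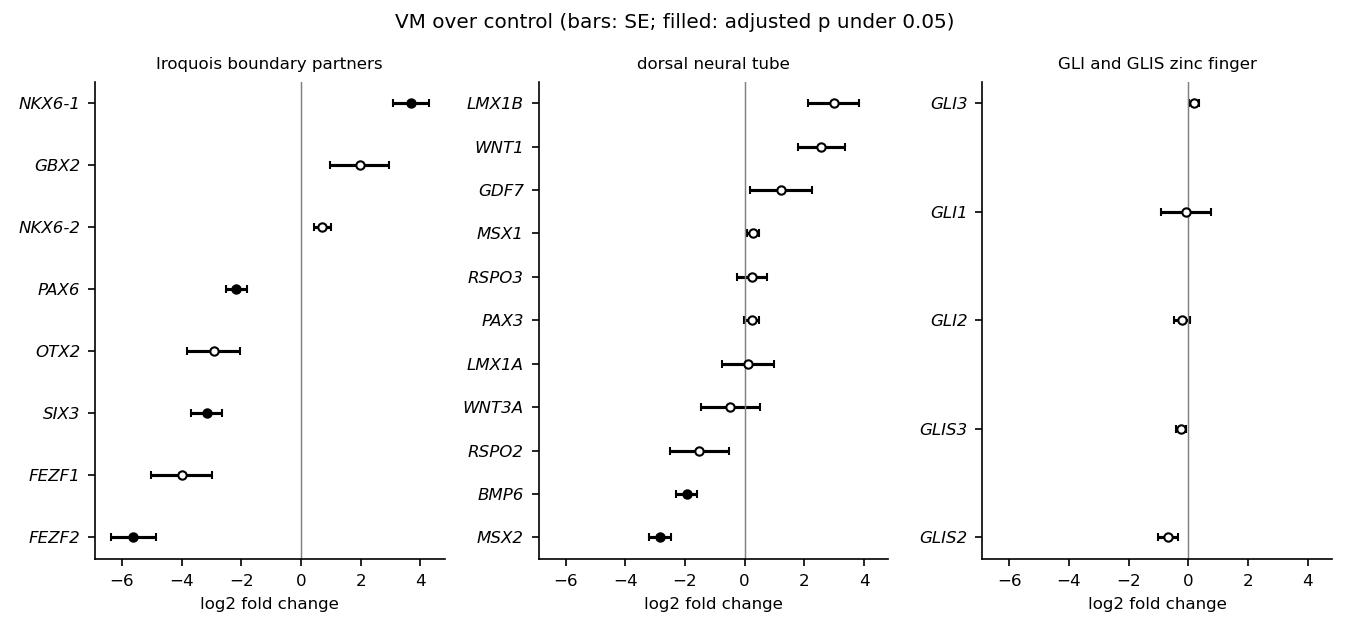
Log2 fold change of VM over control with its SE for the tested genes of 3 lists, filled where the adjusted p is under 0.05. FEZF2, SIX3 and PAX6 lie below 0 and NKX6-1 above 0 in the panel headed Iroquois boundary partners, which holds the patterning factors. MSX2 and BMP6 lie below 0 among the dorsal genes, and no GLI or GLIS gene is filled.

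Markers of other cell types were summed beside these results. ZIC1 and ZIC4 are also known from meninges. The 9 mesenchymal and meningeal markers summed to 441 to 496 CPM in VM and 971 to 1597 CPM in control libraries. Of the 9 tested, 4 were lower, 0 higher and none without reads. Most of each sum was COL1A1 and COL1A2. COL1A2 did not pass, at 140 CPM in VM and 289 CPM in control libraries on average (edgeR adjusted p = 0.11, blocked 0.053). COL1A1, COL3A1, FOXC1 and PRRX1 fell, to averages of 277, 9.70, 20.1 and 1.25 CPM in VM, against 910, 38.7, 91.1 and 8.50 CPM in control libraries (edgeR adjusted p of 0.0037, 0.038, 0.0095 and 0.0050). TWIST1 joined them in the blocked fit, at 0.656 CPM in VM and 4.26 CPM in control libraries (edgeR adjusted p = 0.052, blocked 0.014). LUM and DCN had the opposite sign without passing, at 2.80 and 1.81 CPM in VM and 0.524 and 0.407 CPM in control libraries (edgeR adjusted p of 0.30 and 0.29), and PDGFRB was at 15.8 CPM in VM and 17.6 CPM in control libraries. The 10 neuron markers summed to 366 to 773 CPM in VM and 841 to 1699 CPM in control libraries. Of these, 0 were called by edgeR, 5 had an unadjusted p below 0.05, and 6 were lower in the blocked fit. STMN2 was the largest of them in each library, at 570, 150 and 626 CPM in VM replicates 2, 3 and 4. In control replicates STMN2 was at 1087, 639 and 1456 CPM (edgeR adjusted p = 0.54, blocked 0.0091). GAP43, SNAP25 and SYT1 had positive log2 fold changes without passing (0.55, 0.04 and 0.26). Of 10 astrocyte markers, all tested, AQP4, SLC1A3 and NFIA rose (edgeR adjusted p of 0.048, 0.034 and 0.045) and 0 fell. In the blocked fit 3 rose and CD44, GJA1 and SOX9 fell (edgeR adjusted p of 0.0045, 0.0079 and 0.030). Apart from the block, the alternatives were not examined for marker genes. The astrocyte marker sums were 5533 to 6356 CPM in VM and 4807 to 5689 CPM in control libraries, most of it VIM. The 9 markers other than VIM summed to 1586, 1130 and 1888 CPM in VM and 1689, 1543 and 1994 CPM in control libraries. The part of these shifts in the Iroquois and ZIC differences was not tested, and in bulk RNA fewer cells of a type and less RNA per cell cannot be told apart. Pluripotent cell markers, relevant because stem cells also express ZIC genes, summed to 3.795 to 8.86 CPM in VM and 5.998 to 8.64 CPM in control libraries, with TDGF1 at 0 in every library. Choroid plexus markers summed to at most 0.845 CPM in VM and 3.25 CPM in control libraries with TTR at 0, and cerebellar granule lineage markers to at most 3.15 CPM in VM and 8.39 CPM in control libraries with BARHL1 at 0. Neural crest markers summed to 3.90 to 10.2 CPM in VM and 1.97 to 6.07 CPM in control libraries, with SOX10 at 0, and TFAP2B passed in the blocked fit, at 4.34 CPM in VM and 0.319 CPM in control libraries (edgeR adjusted p = 0.069, blocked 0.0039).

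The protein-coding genes most like each member across the 6 libraries, by Pearson r of log2 CPM, were CALCB (0.995), ADAM19 (0.991) and RALGAPA2 (0.989) for IRX1, and FBXW7 (0.991), AC004593.3 (0.988) and PLEC (0.987) for ZIC1. For IRX2 they were RAD23B, LIFR and RFFL, for IRX3 PLPP5, CMBL and TSEN34, and for IRX5 IFITM1, VAMP2 and TPI1. For ZIC2 they were DCAF1, TRIM41 and CATSPERB, for ZIC4 GXYLT1 and SYNE2, and for ZIC5 DMWD, FAM171A2 and SS18L1. The search covered 11345 genes over 6 libraries that share the group difference, and is a description only.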

How the data were processed

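RNA of 3 VM and 3 control libraries was quantified per transcript. The submitters' processing notes name Salmon, DESeq2 1.27.12 and GRCh38.p13, without roles. The deposited files give estimated counts, TPM and effective length per transcript, and a table of gene signal that the authors had normalized, per the file headers, by steps that no source used here states. Libraries held 11617935 to 15391082 estimated reads.

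Estimated counts were summed per gene with GENCODE 29 (90.6% of 226608 transcripts matched; 0.992% to 1.12% of reads unmatched) and rounded. filterByExpr kept 15984 genes, all 8 members among them, and TMM scaled them. edgeR 4.0.16 (quasi-likelihood, robust; R 4.3.3) tested VM against control with Benjamini-Hochberg adjustment. Standard errors were derived as |log2 fold change| over the root of the F statistic. The method was tested on simulated data. The TPM values deposited by the authors served only to order genes, and no length term entered the test because 3' libraries give about 1 read site per molecule whatever its length.

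Members and lists were chosen with earlier results of these data known. Named genes were all members, their relatives, neighbours within 100 kb with at least 5 reads in a library, list genes past the threshold, the 2 highest of each list, and the 3 genes most like a member; some of these are not reported here. Same-numbered libraries deviated together from their group means (r of 0.234, 0.345 and 0.204, against at most 0.0237 between other numbers). Deviations from a mean of 3 libraries sum to 0, so a positive r for same numbers pulls the r between other numbers down. The contrast is therefore a description and not a test of pairing. Blocked values or counts are given where they change a call. The pairing comes from these correlations, and no label says what a number shares. The alternatives tried were scaling by RLE or upper quartile, testing without a filter, a minimum of 2 CPM in 3 libraries, DESeq2 1.42.0, limma 3.58.1 voom, a length offset, the deposited values on log2(value + 1), the block and each library left out.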

Additional observations from a re-analysis of the deposited data

How the results depend on the processing

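The 344 genes called became 1012 with no filter, 747 with DESeq2, 173 with a gene-length offset, 180 with the deposited normalized values and 1300 with the replicate block, and 131 to 258 with a library left out. Of the 8 members 2 were called. The count was 6 with no filter (3.69% of all genes), 4 with DESeq2 (4.67%), 1 with the length offset (1.08%), 1 with the deposited values (0.837%) and 5 with the replicate block (8.13%). With a library left out it ran from 1 to 3 (0.791% to 1.55% of all genes tested), and ZIC1 was among the called genes each time. No filter added IRX2, IRX3, IRX5 and ZIC4, and DESeq2 added IRX3 and ZIC4. The cause of these shifts was not tested. The log2 fold changes of IRX1, IRX2, IRX3, IRX5, ZIC1 and ZIC4 kept their sign in all 16 alternatives. ZIC2 changed sign without control replicate 2 or 4 (-0.05 and -0.10, against up to 0.43 in other fits), and ZIC5 without control replicate 4 or VM replicate 2 (0.030 and 0.053, against down to -0.14). CRNDE changed sign with the length offset (0.013), without control replicate 2 (0.25) and without VM replicate 4 (0.20); its lowest value with a library left out was -0.43. Of the calls made without the block, MEIS2, SIX3, FEZF2, NKX6-1, PAX6 and BMP6 lost their call in 1 to 7 of 15 alternatives each (the block among them, which ended the call of SIX3 only), and MSX2 in 0. With 11 to 83 reads per library, ZIC4 is the least precisely measured member.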
